A study of Homo sapiens with 4 samples.

Results

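The STEAP metalloreductases are the 4 genes STEAP1, STEAP2, STEAP3 and STEAP4, and they were described in 22Rv1 cells, an established human prostate cancer line, with and without a herbal extract called WCE. The members were all probes whose platform annotation names 1 of these 4 symbols, which gave 11 of the 47320 probes on the array and 4 of the 20046 genes named on it. The cells had received vehicle or WCE at 10 µg/mL for 16 h, and no further agent or genetic change is named in the labels for either group. Each group had 2 arrays, and the labels do not say whether these came from separate cultures, so the spread between them may be technical. The line is a single cell line with no other line beside it, and what the extract contains is not stated in the labels.

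STEAP proteins are haem-binding membrane proteins that were first described as epithelial antigens of the prostate. STEAP2, STEAP3 and STEAP4 carry a cytosolic domain that takes electrons from NADPH and passes them through flavin and haem across the membrane, where ferric iron or cupric copper is reduced. STEAP1 lacks that domain and is known mainly as a cell surface protein of prostate cancer that antibody and T-cell therapies are directed against. STEAP3 is the endosomal ferrireductase of the transferrin cycle in red cell precursors, and STEAP4 is an inflammation-responsive member studied mostly in fat tissue.

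The family was selected with the WCE against vehicle values of these same arrays in view, so every value of a member under that contrast is given here as a description and not as a test. STEAP1 and STEAP2 signals were lower on both WCE arrays than on both vehicle arrays, by 2.54-fold and 2.04-fold. In bulk RNA, fewer cells that make a transcript and less RNA per cell cannot be told apart. STEAP3 differed by 1.08-fold. STEAP4 was not detected on any array. A probe counts as detected on an array when its deposited detection p-value, which sets the probe against the negative control beads, is below 0.05. Of the 11 STEAP probes, 5 were detected on all 4 arrays and 6 on no array. The 5 detected probes are 2 of the 4 for STEAP1, 2 of the 3 for STEAP2, 1 of the 3 for STEAP3 and 0 of the 1 for STEAP4.

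Across the arrays, the median raw signal lay between 81.7 and 85.1 and between 45.2% and 48.9% of probes were detected. Within the vehicle pair r was 0.9942 across all probes and 77 probes differed over 2-fold, and within the WCE pair r was 0.9922 and 338 did. Of the 8 luminal prostate markers with a named probe, 7 were detected on every array: KRT8, KRT18, EPCAM, HOXB13, FOLH1, KLK2 and TMPRSS2. KLK3 was detected on none. The median log2 difference, WCE minus vehicle, of these 7 was -0.26, against 0.02 for all tested genes. It was below 0 for 6 and above 0 for 1, and KLK2 and TMPRSS2 were called lower, as given below. The luminal markers had summed raw signals of 16090 and 14350 with vehicle and 16970 and 15080 with WCE. Such sums are not normalized and follow the brightest probes most, so they do not measure luminal content. EPCAM was the brightest of the 7 in the fit, at log2 12.50 with vehicle and 12.47 with WCE. No probe of the basal markers KRT5 and KRT14 or of the endothelial markers PECAM1, CDH5 and VWF was detected. The fibroblast markers with a named probe had summed raw signals of 949.7 and 1108 with vehicle and 1389 and 1096 with WCE, with COL1A1 and LUM detected on all arrays and COL1A2 on none. The immune markers summed to 526.7 and 526.5 with vehicle and 488.5 and 507.6 with WCE, with CD14 detected on all arrays and PTPRC and CD3E on none. The part of these markers in the STEAP values was not tested.

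STEAP1, STEAP2 and STEAP4 lie on chromosome 7 and STEAP3 on chromosome 2 in the RefSeq gene table of GRCh38.p14. STEAP1 spans chr7:90154469-90164827, and STEAP2 starts 46.9 kb beyond its end and spans chr7:90211740-90243408. STEAP4 lies on the same chromosome at chr7:88270892-88306894, and its start is 1884 kb before that of STEAP1. STEAP3 spans chr2:119223834-119265652. The promoters of the 3 detected members are shown because STEAP1 and STEAP2, which lie close together, were both lower after WCE while STEAP3 differed little. Each sequence runs from 250 bases before the start site to 50 bases from it onward, 5′ to 3′ on the gene's strand, from RefSeq on GRCh38.p14, and all 3 genes are on the plus strand. Capitals mark matches, on either strand, to the core of the xenobiotic response element.
STEAP1 (chr7:90154219-90154518): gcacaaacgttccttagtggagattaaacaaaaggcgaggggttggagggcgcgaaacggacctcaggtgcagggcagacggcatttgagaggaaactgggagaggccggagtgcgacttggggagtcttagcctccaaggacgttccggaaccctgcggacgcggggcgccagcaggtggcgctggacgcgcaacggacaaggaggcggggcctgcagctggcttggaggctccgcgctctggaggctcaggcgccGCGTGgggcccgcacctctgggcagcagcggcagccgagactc
STEAP2 (chr7:90211490-90211789): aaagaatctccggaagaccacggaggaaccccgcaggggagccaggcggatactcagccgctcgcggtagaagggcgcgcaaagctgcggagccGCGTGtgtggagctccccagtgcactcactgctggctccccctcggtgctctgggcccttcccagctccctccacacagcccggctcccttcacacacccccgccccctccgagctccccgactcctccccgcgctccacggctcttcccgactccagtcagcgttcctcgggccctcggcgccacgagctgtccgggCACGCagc
STEAP3 (chr2:119223584-119223883): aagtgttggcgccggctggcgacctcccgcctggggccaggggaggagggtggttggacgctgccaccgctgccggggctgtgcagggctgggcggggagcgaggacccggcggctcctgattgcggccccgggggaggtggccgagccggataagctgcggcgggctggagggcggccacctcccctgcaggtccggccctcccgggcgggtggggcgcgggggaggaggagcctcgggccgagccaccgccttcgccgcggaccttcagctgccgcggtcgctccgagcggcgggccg
The core, GCGTG, had 1 match in the STEAP1 window, 7 bases past the start site, and 2 in that of STEAP2, at 156 bases before and 42 bases past the start site. It had 0 in the STEAP3 window. Of 35116 RefSeq promoter windows of the same length, 36.5% held this core, so a match is common and is a description only. The androgen response half-site AGAACA, present in 14.8% of windows, the antioxidant response element core TGANNNNGC, in 41.8%, and the E-box CACGTG, in 7.26%, had 0 matches in these 3 windows, each searched on both strands. The 2 core matches in the STEAP2 window did not overlap. STEAP2 has a further start site in the table, at whose window (chr7:90213570-90213869) none of the 4 motifs matched. The STEAP4 window (chr7:88306845-88307144) held 1 match, to the antioxidant response element core. The STEAP1 window equalled that of STEAP1B, a paralog elsewhere on chromosome 7, at 290 of 300 bases (96.7%), and that of STEAP2 at 96 of 300 (32%), without gaps. No probe is named for STEAP1B here, and how far the STEAP1 probes separate the 2 transcripts was not tested.

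STEAP1, the surface antigen without its own NADPH-binding domain, had the largest difference of the family. On its brighter probe, ILMN_1733094, the raw signals with vehicle were 619.2 and 739.1, against 362.4 and 279.8 with WCE. Both WCE arrays were below both vehicle arrays, with vehicle replicate 2 the highest and WCE replicate 2 the lowest. After background correction and quantile normalization the log2 signal was 9.35 ± 0.22 with vehicle and 8.01 ± 0.13 with WCE (SD, n = 2 per group). The difference, WCE minus vehicle, was -1.34 ± 0.18 (log2, SE of the fit over all genes), and the 4 possible pairings of a WCE array with a vehicle array gave between -1.59 and -1.10. These pairings all exceeded the gaps between the vehicle arrays (0.31) and between the WCE arrays (0.18).

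The second detected STEAP1 probe, ILMN_1705629, had raw signals of 381.2 and 419 with vehicle and 206.1 and 143.7 with WCE. The arrays fell in the same order as on the first probe, and the groups did not overlap. Its log2 signal was 8.49 ± 0.13 with vehicle and 6.86 ± 0.33 with WCE (SD, n = 2 per group), a difference of -1.63 ± 0.20 (log2, SE of the fit over all probes) or 3.10-fold. The WCE arrays lay 0.46 apart on this probe, against 0.19 for the vehicle arrays. The other 2 STEAP1 probes, ILMN_1772260 and ILMN_2244631, were not detected on any array, and no fold is given for them. All 4 probes carry the same transcript accession in the platform annotation, so the annotation does not tell which transcript the undetected probes would read.

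STEAP2, which traffics between the Golgi and the plasma membrane and reduces both metals, had the next largest difference. Its brighter probe, ILMN_1809101, had raw signals of 597.3 and 793.5 with vehicle and 446.9 and 340.2 with WCE. The groups did not overlap, and the ends of the range were again vehicle replicate 2 and WCE replicate 2. The log2 signal was 9.38 ± 0.34 with vehicle and 8.35 ± 0.13 with WCE (SD, n = 2 per group), a difference of -1.03 ± 0.20 (log2, SE of the fit over all genes). The pairings of a WCE array with a vehicle array ranged from -1.36 to -0.70, and the vehicle arrays themselves lay 0.48 apart. The smallest of these pairings was therefore 0.70 in size, still above that gap.

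The second detected STEAP2 probe, ILMN_2344298, had raw signals of 429.8 and 605 with vehicle and 345.4 and 271.3 with WCE. Here the vehicle arrays were 0.58 apart on the log2 scale and the closest WCE and vehicle arrays had a difference of -0.59, so the spread between vehicle arrays was nearly as large as the smallest difference between groups. The log2 signal was 8.89 ± 0.41 with vehicle and 7.94 ± 0.11 with WCE (SD, n = 2 per group), and the difference was -0.95 ± 0.22 (log2, SE of the fit over all probes), or 1.94-fold. The remaining STEAP2 probe, ILMN_2259308, was detected on no array.

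STEAP3, the endosomal ferrireductase, showed little difference between the groups. Its only detected probe, ILMN_2383349, had raw signals of 145.2 and 140.7 with vehicle and 144.3 and 133 with WCE. These raw values overlapped between the groups, while after normalization the WCE arrays, at 6.36 and 6.45, lay just below the vehicle arrays, at 6.54 and 6.49. The difference was -0.11 ± 0.16 (log2, SE of the fit over all genes), smaller than its SE. The other STEAP3 probes, ILMN_1761577 and ILMN_2281089, were not detected. STEAP4, on its single probe ILMN_1772036, had raw signals of 64.8 and 76.3 with vehicle and 59.6 and 55.5 with WCE. These lie among the negative controls, with detection p-values from 0.16494 to 0.93766, so STEAP4 was not detectable on these arrays and no fold is given. The 6 undetected STEAP probes had raw signals between 48.9 and 83.4 in all.

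**Figure D1:**
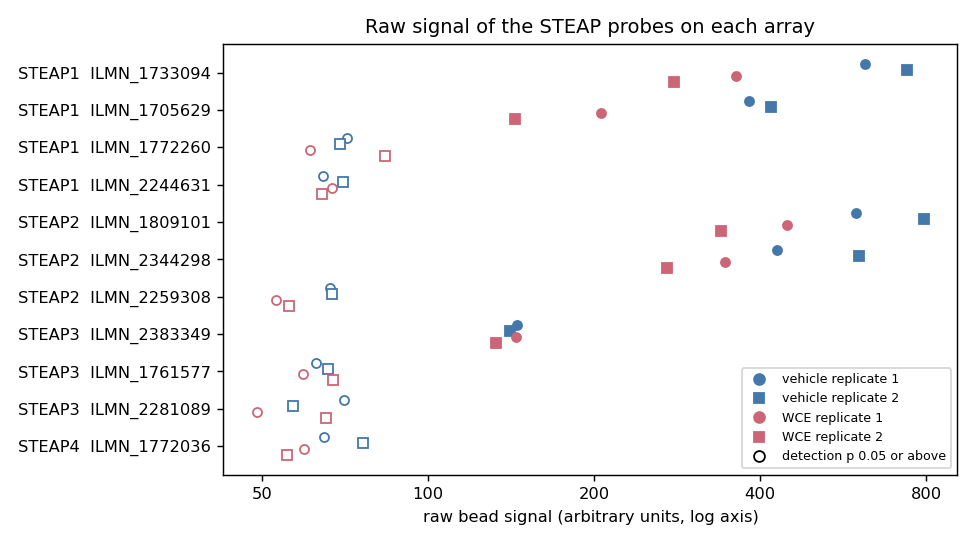
Raw bead signal (arbitrary units, log axis) of each of the 11 STEAP probes on the 4 arrays; blue is vehicle, red is WCE, circles are replicate 1 and squares replicate 2, and open symbols were not detected. The detected STEAP1 and STEAP2 probes have both WCE arrays to the left of both vehicle arrays, the detected STEAP3 probe has overlapping groups (140.7 and 145.2 with vehicle, 133 and 144.3 with WCE), and the undetected probes lie between 48.9 and 83.4.

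**Figure D2:**
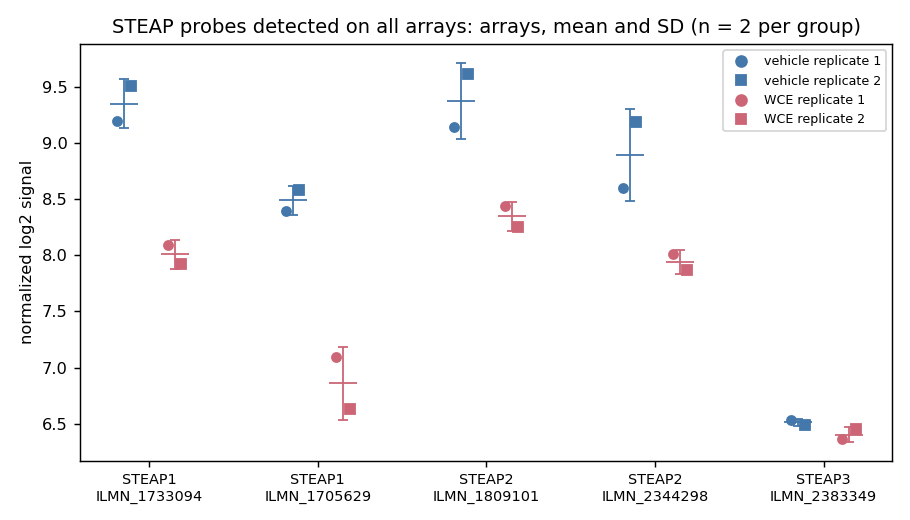
Normalized log2 signal of the 5 STEAP probes detected on all arrays, with each array as a point and the mean and SD of each group (n = 2) as bars; blue is vehicle and red is WCE. The groups are apart on both probes of STEAP1 and of STEAP2, with the vehicle arrays of STEAP2 0.48 and 0.58 apart, and they nearly coincide for STEAP3.

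In the fit over all genes, with the brightest kept probe standing for each gene, 3 of the 4 members were tested. Limma with Benjamini-Hochberg adjustment at 0.05 called 229 of 12136 genes, or 1.89%, of which 86 (0.709% of all tested) were lower after WCE. With median scaling 130 genes were called, 100 higher and 30 lower, against 143 and 86 here. The balance turned without WCE replicate 1, where 330 were higher and 530 lower, and in the replicate block, where 334 were higher and 411 lower. STEAP1 and STEAP2 were among the genes called lower and STEAP3 was not called, a count from which nothing is read because the members were chosen on this contrast. Ordered from the most negative difference, STEAP1 was at place 23 and STEAP2 at place 64 of 12136, and STEAP3 at place 3960. The median difference of all tested genes was 0.02 on the log2 scale. Non-overlapping groups with WCE lower were seen in all 3 tested members and in 24.1% of all tested genes, and non-overlapping groups in either direction in 50.3%. The 5 detected STEAP probes had them as well, as did 24.7% of all tested probes. At the level of probes, where 0.314% of 21996 probes were called lower, both detected STEAP1 probes were called and neither detected STEAP2 probe was. The calls also leaned on single arrays and settings. Without vehicle replicate 2 neither STEAP1 nor STEAP2 was called, and STEAP2 was not called without WCE replicate 2 or with median scaling either. Neither was called when undetected probes were left in the test. Their differences stayed between -1.50 and -1.18 for STEAP1 and between -1.27 and -0.80 for STEAP2 over the 14 other settings tried, and that of STEAP3 between -0.16 and -0.06.

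**Figure D3:**
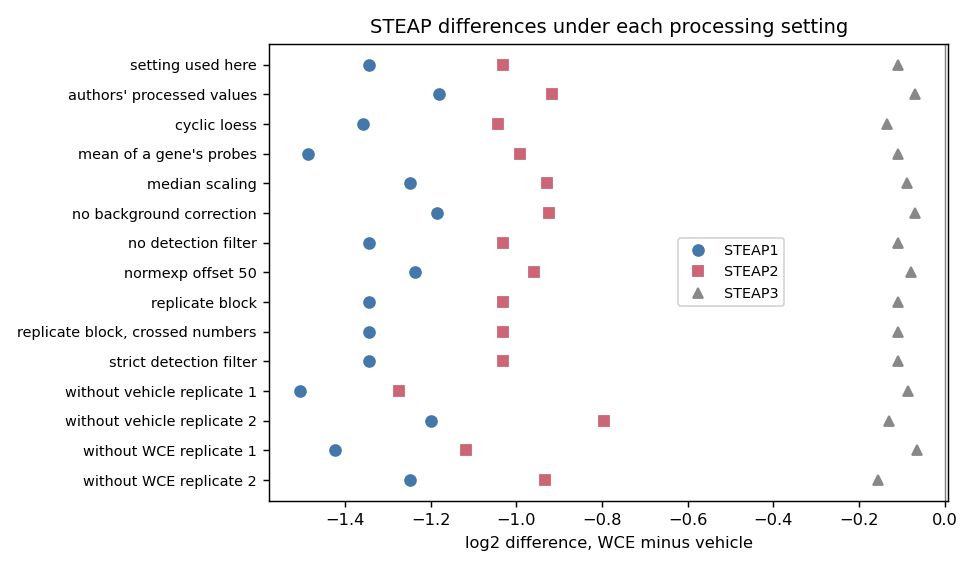
Log2 difference, WCE minus vehicle, of STEAP1 (circles), STEAP2 (squares) and STEAP3 (triangles) under the setting used here and the 14 other settings, 1 per row. All STEAP1 values are at -1.18 or lower, STEAP2 values range from -1.27 to -0.80 with both ends coming from leaving out a vehicle array, and STEAP3 values stay close to 0.

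The profiles of STEAP1 and STEAP2 over the 4 arrays were compared with those of the other tested genes by the Euclidean distance between log2 values centred on each gene's own mean. From STEAP1, STEAP2 was at distance 0.34 and at place 13 of 12135 genes. From STEAP2, STEAP1 was at place 24, and STEAP3 was at distance 1.27 from STEAP1 and at place 3739. This likeness rests on 4 arrays and on the difference between the groups that the members were chosen for, so it is a description. The gene nearest to STEAP1 was MAOA, which encodes monoamine oxidase A, with log2 signals of 11.02 and 11.33 with vehicle and 9.89 and 9.67 with WCE, at distance 0.06. Like STEAP1 it was highest in vehicle replicate 2 and lowest in WCE replicate 2. PARP14, KCNMA1, FKBP5 and CYP2C8 followed, at distances of 0.20 to 0.23. FKBP5 encodes a co-chaperone of steroid receptors and KCNMA1 a potassium channel, and CYP2C8 was detected on 1 of the WCE arrays. The gene nearest to STEAP2 was FABP7, a fatty acid binding protein, with 9.85 and 10.20 with vehicle and 9.13 and 8.89 with WCE, at distance 0.11. FCMR, NLGN1, CLK2P1 and SNORD88B followed, at 0.21 to 0.27. FCMR was not detected on either WCE array, CLK2P1 is a pseudogene whose probe may also read its parent gene, and SNORD88B was not called in the fit. For STEAP3 the nearest genes were KHDC1, HMCES, FANCG, PHRF1 and ATL3, at distances of 0.01 to 0.02, and each had a difference between -0.13 and -0.10.

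Genes beside the STEAP loci were compared to see whether the differences extended to neighbours. The 4 nearest protein-coding genes with a tested probe on each side were taken, whatever their values. None of the 8 around the chromosome 7 locus passed limma's adjusted p of 0.05, and their median difference was -0.17 (log2), with a range from -0.58 to 0.49. Of the 8, none lay between STEAP4 and STEAP2. CFAP69, which codes for a ciliary and sperm flagellar protein, is the nearest of the 8 to STEAP2. It starts at chr7:90245174, just past the end of STEAP2 at chr7:90243408, and 90.7 kb past the start of STEAP1. CFAP69 had log2 signals of 6.90 and 7.25 with vehicle and 6.66 and 6.32 with WCE. Its groups did not overlap, and its difference was -0.58 ± 0.19 (SE, adjusted p = 0.155, limma). CLDN12, a claudin 249 kb past the start of STEAP1, went the other way, with 8.97 and 9.28 against 9.75 and 9.49. Its difference was 0.49 ± 0.18 (adjusted p = 0.191, limma). The gene between these 2, GTPBP10, had -0.35 ± 0.20, and CDK14, farther out, had -0.41 ± 0.24. On the far side, beyond STEAP4, SLC25A40, DBF4, ADAM22 and SRI had between -0.24 and -0.04. Their starts lie at -2321 to -1949 kb from that of STEAP1, so the median over the 8 also covers genes far from STEAP1 and STEAP2. ADAM22 was detected on 1 of the WCE arrays. Around STEAP3, 0 of 8 neighbours passed, with a median of 0.07 and a range from -0.35 (C1QL2) to 0.45 (C2orf76). No neighbour of either locus reached the size of the STEAP1 or STEAP2 difference, which were themselves not set against them in a test.

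**Figure D4:**
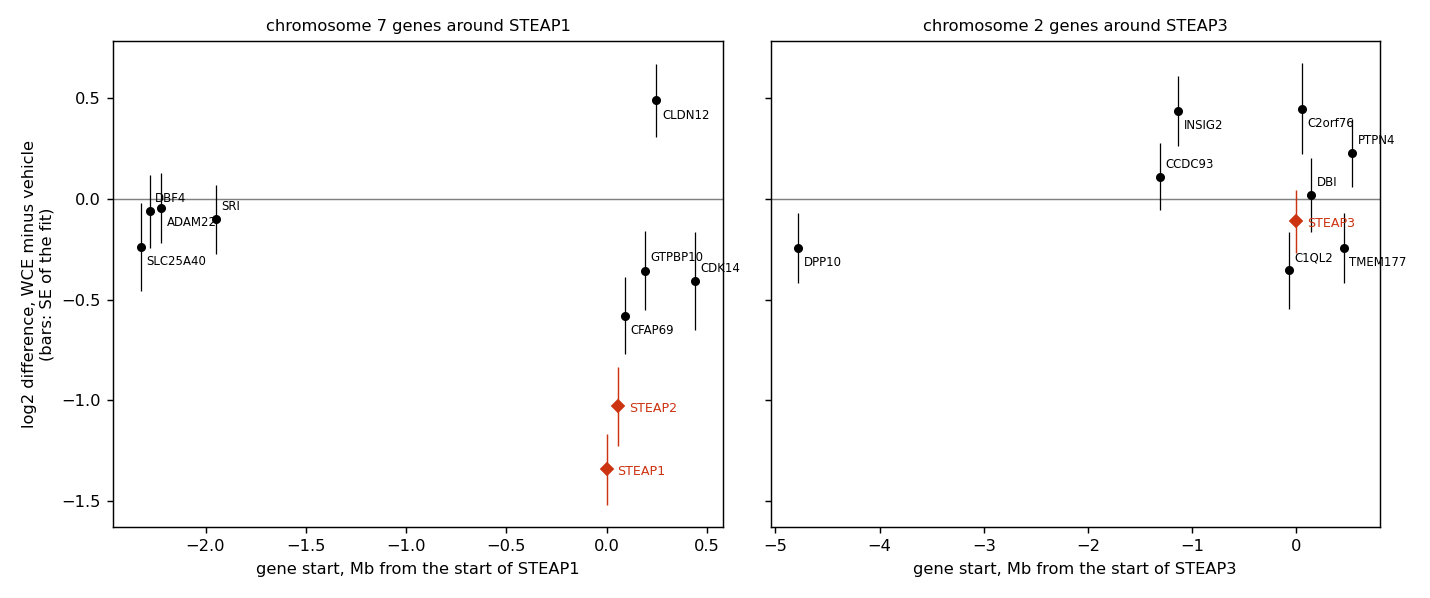
Log2 difference, WCE minus vehicle, with the SE of the fit, of the STEAP genes (red diamonds) and the 8 nearest tested protein-coding genes of each locus (black points), by distance of the gene start from that of STEAP1 or STEAP3 in Mb. STEAP1 and STEAP2 lie at -1.34 and -1.03, and the chromosome 7 neighbours lie between -0.58 and 0.49.

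The enzymes act on iron and copper and draw on NADPH and flavin, so the genes of those routes were counted in the same fit, against the 1.89% of all genes called. Of 97 genes in 7 lists (1 of them STEAP1B alone, with no named probe), 66 were tested and 4 were called. None of 15 tested genes of endosomal iron uptake, storage and export passed limma's adjusted p of 0.05, and their median difference was 0.02 (log2), as was that of all genes. The transferrin receptor TFRC had log2 signals of 12.59 and 12.78 with vehicle and 13.15 and 13.27 with WCE. Its groups did not overlap, and its difference was 0.52 ± 0.16 (SE, adjusted p = 0.144, limma). SLC39A14, a zinc and iron importer, had 0.45 ± 0.16 (adjusted p = 0.181, limma). TF, which encodes transferrin, was detected on both WCE arrays and on neither vehicle array, so it was kept through the WCE group alone. Its values are therefore a description. The lower bound from the group means, near the detection limit, was 1.27-fold higher with WCE, and TF did not pass (adjusted p = 0.13, limma). SLC11A2, the importer that moves reduced iron out of the endosome, had 0.21 ± 0.17, and the ferritin light chain FTL had -0.17 ± 0.18.

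Copper genes showed smaller differences. Of 14 tested, 0 passed, with a median of 0.06 and a range from -0.19 to 0.34. The largest was ATP7B, a copper-exporting ATPase, at 0.34 ± 0.16 (adjusted p = 0.28, limma), and the uptake channel SLC31A1 had 0.18 ± 0.17. SOD1, the copper and zinc superoxide dismutase, had 0.27 ± 0.16 and COX11, a copper chaperone of cytochrome oxidase, had 0.25 ± 0.16.

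Other reductases that carry electrons across membranes were counted next, and none of 6 tested passed, with a median of 0.23. The list held 14 genes, all with a named probe. CYBRD1, CYBB, NOX1, NOX3, NOX4, NOX5, DUOX1 and DUOX2 did not pass the detection filter, so the count does not cover them. CYBA, a subunit of NADPH oxidases, had log2 signals of 4.80 and 5.32 with vehicle and 5.80 and 5.86 with WCE. It was detected on 1 of the vehicle arrays, so CYBA too was kept through the WCE group alone and its values are a description. Its difference was 0.77 ± 0.20 (adjusted p = 0.0935, limma). CYB561D2 and CYB561D1, of the cytochrome b561 family, had 0.43 ± 0.18 and 0.29 ± 0.17. Of 15 tested genes supplying NADPH and flavin, 1 rose, ME1, the cytosolic malic enzyme that makes NADPH. ME1 had 6.97 and 7.05 with vehicle and 7.83 and 7.83 with WCE, a difference of 0.82 ± 0.16 (adjusted p = 0.0377, limma), and the list's median was -0.06. ME1 was not called without vehicle replicate 1, vehicle replicate 2 or WCE replicate 2, with median scaling, without a detection filter or in the block with crossed replicate numbers. IDH2, the mitochondrial NADPH-linked isocitrate dehydrogenase, had -0.54 ± 0.18 without passing.

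The group with most calls beside the STEAP genes was that of prostate surface antigens and secreted markers. Of 10 tested, 3 fell and 0 rose, with a median difference of -0.64 against 0.02 for all genes. This list was drawn up with results for some of its members known, and is no independent evidence of a direction. TMPRSS2, an androgen-induced membrane protease, had log2 signals of 8.04 and 7.77 with vehicle and 6.18 and 6.32 with WCE, and fell by 1.66 ± 0.17 (SE, adjusted p = 0.00201, limma). The kallikreins KLK2 and KLK4, secreted proteases of the prostate, fell by 1.05 ± 0.21 (adjusted p = 0.0426, limma) and 0.85 ± 0.16 (adjusted p = 0.0385, limma). TMPRSS2 was called in each of the 14 other settings, whereas KLK2 and KLK4 lost their calls in the same 6 settings as ME1, and KLK2 also with cyclic loess. SLC45A3, a prostate membrane transporter, and TMEFF2, a membrane protein with follistatin-like domains, had -0.72 ± 0.16 and -0.66 ± 0.16 without passing. Both were called without background correction, with an offset of 50, with the authors' processed values and in the replicate block. SLC45A3 was also called with the strict detection filter, and neither was called in the remaining settings. FOLH1, which encodes the surface antigen PSMA, had log2 signals of 9.90 with vehicle and 10.12 with WCE on average, a difference of 0.22 ± 0.16 (adjusted p = 0.517, limma). CD276, another surface antigen that antibodies are made against, had -0.05 ± 0.18. The difference between STEAP1 and FOLH1 was not tested.

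Of the transcription factors and cytokines reported to regulate STEAP genes, 6 were tested and 0 passed, with a median of 0.10. STAT3 had 0.27 ± 0.17, CEBPA had -0.20 ± 0.18 and RELA had 0.17 ± 0.18.

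**Figure D5:**
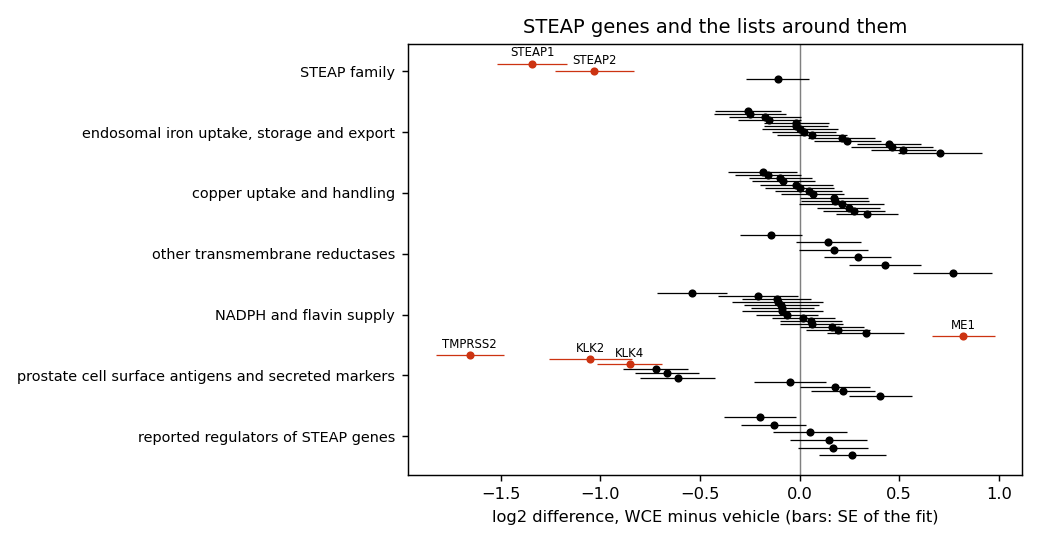
Log2 difference, WCE minus vehicle, with the SE of the fit, of the 3 tested STEAP genes and of each tested gene of the 6 lists, 1 point per gene; red points with names were called by limma at an adjusted p of 0.05. The iron and copper lists centre on 0, while the prostate list has TMPRSS2, KLK2 and KLK4 at -1.66, -1.05 and -0.85.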

How the data were processed

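RNA from 4 Illumina bead arrays was analysed. Total RNA was purified on columns and turned into biotinylated cRNA, per the labels' protocols. The authors deposited raw bead intensities, linear and apparently neither background-subtracted nor normalized, with a detection p-value beside each, per the file headers. They also deposited processed log2 values, made by a method that no label or header names. These have a median of 6.40 on each array, keep each array's raw order (Spearman's rho 1) and lie within 0.136 of quantile-normalized log2 raw signals, so they are not centred by gene. No label or header names the scanner, slide or scan date.

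Intensities were corrected with normexp (negative controls inferred from detection p-values, offset 16), quantile-normalized and set to log2 in limma 3.58.1 under R 4.3.3. Of 47320 probes, 21996 were kept, those detected (p-value below 0.05) throughout 1 group or both. Of all probes, 30112 had 1 gene symbol, 8 had several and were left unnamed, and 17200 had none, and 0 symbols needed updating by gene number against RefSeq. Each gene was represented by its brightest kept probe. The groups were compared with lmFit and eBayes over all 4 arrays, with 2 residual and 7.12 prior degrees of freedom. A two-sided exact permutation test of 2 arrays against 2 cannot go below p = 0.333, so calls rest on limma's pooled variance, and the number of arrays limits the precision. For a lower bound, each undetected array was set to the lowest detected signal where its own value was below that. Fold changes compare arrays within a probe, never 1 probe with another.

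The members and lists were chosen with earlier results of these data known. Named are all STEAP probes, list members past the threshold or otherwise up to 3 with the smallest p, the 4 nearest tested neighbours on each side of each locus, and the 5 genes of most alike profile for each tested member. A few further list genes (SLC11A2, FTL, SLC31A1, IDH2, SLC45A3, TMEFF2, FOLH1 and CD276) were named after their values were seen, for their role. Some list genes had no named probe or did not pass the detection filter, and are not analysed here. The steps were run on simulated arrays with known changes placed on bright probes, with independent noise and each probe standing for itself. That run does not cover the choice of the brightest probe, changes on dim probes or a spread as wide as that of STEAP2 with vehicle. Other settings were the background correction, offset, scaling, filter, probe summary, the authors' values, a block on replicate number and leave-one-out fits.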

Additional observations from a re-analysis of the deposited data

How the results depend on the processing

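The differences of STEAP1, STEAP2 and STEAP3 kept their sign and moved by less than 1 SD between replicates in all 14 alternatives. With 1 array left out they ranged from -1.50 to -1.20, from -1.27 to -0.80 and from -0.16 to -0.06. The number of genes called, 229 here, was 388 without background correction, 368 with an offset of 50, 402 with the authors' processed values, 130 with median scaling and 53 without a detection filter, where 20046 genes are tested. It ranged from 75 to 860 with 1 array left out: 75 and 77 when vehicle replicate 1 or 2 was left out, and 860 and 123 when WCE replicate 1 or 2 was, each fit taking the spread of the lone array from the other group. The list genes called, 4 here, were 1 with median scaling or without a filter and between 1 and 6 with 1 array left out. They were 6 without background correction, with an offset of 50 and with the authors' values. With the strict detection filter KLK2 was not tested. The replicate block gave 745 called genes and 8 list genes. The labels do not say that the numbers pair arrays, and same-numbered deviations correlated at -0.16 across genes. With the numbers crossed, chosen after seeing the data, 167 genes and 1 list gene were called. The cause of these shifts was not tested. Signals near background limit what could be seen of STEAP3 and STEAP4.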
